A study of Mus musculus with 9 samples.

Results

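The genes described here make, store, break down and receive GABA, the amino acid transmitter derived from glutamate. They were measured in pancreatic islets, and their rows were chosen by symbol from the gene table: Gad1, Gad2, Slc32a1, Abat, Aldh5a1, Gabbr1, Gabbr2 and Gabra4, 8 of 25611 rows. The choice was made with the difference between the groups already known, so the levels of these 8 genes are given as a description, without a test. RNA sequencing covered 7 islet libraries of 4-week-old mice. The 4 control libraries came from mice with the conditional allele alone (genotype Glis3fl/fl), and the 3 libraries labelled knockout came from mice of genotype Pdx1-Cre;Glis3fl/fl. All 7 therefore carried the conditional allele, and no group carried the driver alone, so effects of the driver and of the deletion cannot be told apart. Pdx1 drives the Cre recombinase in the pancreatic lineage, and cells of other lineages in the islet are outside its reach. Glis3 binding came from 1 peak list of islets of 8-week-old Glis3-eGFP mice, made with an antibody against GFP, without a replicate.

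As background, glutamate decarboxylase removes a carboxyl group from glutamate to make GABA, and Gad1 and Gad2 encode its larger and its smaller form. Beta cells hold GABA at a level that is high for a tissue outside the nervous system, and the Gad2 product is a known autoantigen of type 1 diabetes. In neurons the Slc32a1 product loads GABA into vesicles. Abat turns GABA into succinic semialdehyde and Aldh5a1 oxidises that to succinate, and both are steps of the GABA shunt into the mitochondrial citric acid cycle. GABA acts on GABA-A receptors, chloride channels built from several subunits including the one encoded by Gabra4, and on the GABA-B receptor, which couples to G proteins and needs the products of both Gabbr1 and Gabbr2.

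Whole-library facts bear on these values in a few places. Total counts ran from 12099365 to 48054551. Levels are in CPM, counts per 1000000 after TMM scaling of library size. Glis3 itself had 39.5, 46.8, 31.2 and 33.6 CPM in the controls, and the labelled knockouts had 52.1, 52.7 and 57.8 CPM, all higher. The deposited value is a single count per gene and leaves the deleted part unresolved, so this level does not check the labels and the group is called labelled knockout. Islet hormone genes were abundant in all libraries, and the summed level of 6 beta cell markers ran from 306866 to 520466 CPM in controls and from 100815 to 199138 CPM in the labelled knockouts. Summed levels of 12 neuron and Schwann cell markers ran from 248 to 295 CPM in controls and from 432 to 506 CPM in the labelled knockouts, and of the 11 tested, Snap25 and Th were called higher, Tubb3 was called lower and 8 were not called. The Tubb3 call (edgeR adjusted p = 0.0468) was lost in 8 of 15 alternatives, among them the replicate number as a block (0.0582). Summed levels of 5 duct markers ran from 221 to 267 CPM and from 727 to 927 CPM, in the same order. Spp1 was called higher, with 30.5 CPM on average in controls and 598 CPM in the labelled knockouts, while Krt7, Sox9 and Krt19 were not called and Cftr was not tested. Summed levels of 8 acinar markers ran from 536 to 3447 CPM and from 1830 to 10609 CPM, and of the 7 tested, 0 were called. No marker symbol in these lists was at 0 in all libraries, but the acinar Amy2a5, which has several rows, was not tested. Its only row with reads had 0.0348 CPM in control 1 and 0.0479 CPM in control 4. The part of these cell types in the results below was not tested.

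Promoter sequences show where binding was called at the start of the genes. Peaks were 200 bp intervals, and 3 of the 7 promoter windows held in the RefSeq table (build GRCm38.p6, from 250 bases before to 50 after the start) overlapped one, against 20.8% of all 32851 windows. That share includes windows of genes not tested here, so it does not set the members apart. Of the 14529 tested genes, 71.2% had a peak within the wider 1 kb of the 5′ end. Abat is not in the table. The 250 bases before the start are shown 5′ to 3′ on the strand of the gene for the genes on which the account turns. The first is Gad1, the gene that differed most among the 8 (chr2:70561879-70562128, plus strand); its nearest peak lies beyond the start, at 70562290 to 70562489, so nothing is in capitals.
Gad1: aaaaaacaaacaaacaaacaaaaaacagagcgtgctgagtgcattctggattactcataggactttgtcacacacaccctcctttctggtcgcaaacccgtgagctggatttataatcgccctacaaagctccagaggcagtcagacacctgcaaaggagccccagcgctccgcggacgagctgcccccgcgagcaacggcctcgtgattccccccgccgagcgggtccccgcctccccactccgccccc
In Gad2, the other decarboxylase gene (chr2:22622077-22622326, plus strand), capitals mark the 130 bases inside the peak at 22622197 to 22622396.
Gad2: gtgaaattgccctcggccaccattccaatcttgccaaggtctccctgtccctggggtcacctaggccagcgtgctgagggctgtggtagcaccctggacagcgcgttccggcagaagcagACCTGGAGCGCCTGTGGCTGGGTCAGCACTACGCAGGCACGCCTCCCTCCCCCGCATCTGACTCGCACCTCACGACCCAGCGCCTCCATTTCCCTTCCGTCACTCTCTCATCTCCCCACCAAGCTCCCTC
In Gabbr2 (chr4:46991715-46991964, minus strand), capitals mark the 104 bases inside the peak at 46991619 to 46991818.
Gabbr2: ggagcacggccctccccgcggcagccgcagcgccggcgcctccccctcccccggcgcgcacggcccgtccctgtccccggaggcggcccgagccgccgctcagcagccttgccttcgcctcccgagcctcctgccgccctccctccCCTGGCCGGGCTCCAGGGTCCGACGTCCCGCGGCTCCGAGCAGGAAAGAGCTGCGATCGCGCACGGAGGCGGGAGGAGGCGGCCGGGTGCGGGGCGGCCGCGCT
Slc32a1 (chr2:158610508-158610757, plus strand) had no peak in its window and is shown because it alone of the 7 held the searched letters, which are in capitals.
Slc32a1: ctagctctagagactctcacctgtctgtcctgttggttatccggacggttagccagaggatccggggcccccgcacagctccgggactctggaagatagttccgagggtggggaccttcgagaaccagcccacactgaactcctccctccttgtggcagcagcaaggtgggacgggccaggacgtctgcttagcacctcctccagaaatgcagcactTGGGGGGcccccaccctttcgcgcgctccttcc

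The letters TGGGGGG, the core of the site known for GLIS proteins, were searched on both strands of the 300-base windows. They occurred in 1 of the 7 windows and in 8.47% of all windows. The longer TGGGGGGT, which contains the first motif, occurred in 0 of the 7 and in 1.53% of all windows. The members' windows were rich in G and C, from 58.7% in Gabra4 to 80.3% in Gabbr2, where the median of all windows was 52.7%. They held from 12 CpG dinucleotides in Gabra4 to 46 in Gabbr2, where the median was 7. The windows that overlapped a peak were those of Gad2 (61.3% G and C), Gabbr1 (67.3%) and Gabbr2.

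Of the genes that make GABA, Gad1 was expressed in control islets and far lower in the labelled knockouts, and Gad2 was near the limit of detection throughout. Gad1 (chromosome 2, 70562129 to 70602014, plus strand, mm10) had 94.7, 72.3, 73.8 and 97.6 CPM in controls 1 to 4. Labelled knockouts 1 to 3 had 2.15, 4.88 and 9.88 CPM. The ranges were far apart, and the labelled knockout mean (5.64 ± 3.92 CPM; SD, n = 3) was 6.66% of the control mean (84.6 ± 13.4 CPM; SD, n = 4). The log2 difference was −3.86 (SE 0.45), or 14.5-fold. The values rested on 9687 counts in the controls and 365 in the labelled knockouts. Labelled knockout 3 kept the most Gad1, and without it the log2 difference was −4.55 (SE 0.30). Of 6 beta cell markers, 5 were called lower in the same libraries, and their part in the Gad1 difference was not tested. In bulk tissue, fewer cells that express a gene and less RNA per cell cannot be told apart. An antisense gene, Gad1os, overlaps Gad1 on the other strand. It had 0.116 ± 0.0873 CPM (SD, n = 4) and 0.0576 ± 0.0998 CPM (SD, n = 3), and because the strand setting of the counting is not given in the sources used here, reads of the pair cannot be told apart.

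Gad2 (chromosome 2, 22622327 to 22693877, plus strand) had 17, 12, 0 and 15 counts in controls 1 to 4, or 0.592, 0.233, 0 and 0.718 CPM. It had 0, 0 and 5 counts in labelled knockouts 1 to 3, or 0, 0 and 0.221 CPM. The ranges overlapped, since control 3 had no read. Gad2 did not reach the filter on low counts and entered no fit. Set against the control sum after allowing for library size, the labelled knockout sum gave a ratio of 0.225, with a 95% interval (exact, from the binomial share) from 0.0698 to 0.567 that covers counting error only.

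The vesicle carrier was not detected. Slc32a1 (chromosome 2, 158610758 to 158615747, plus strand) had 0 counts in all 7 libraries. A count of 0 allows up to 3 counts, which is 0.0583 CPM in the deepest library, control 2, and 0.223 CPM in the shallowest, labelled knockout 1. No library therefore bears on whether the gene differed between the groups.

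**Figure D1:**
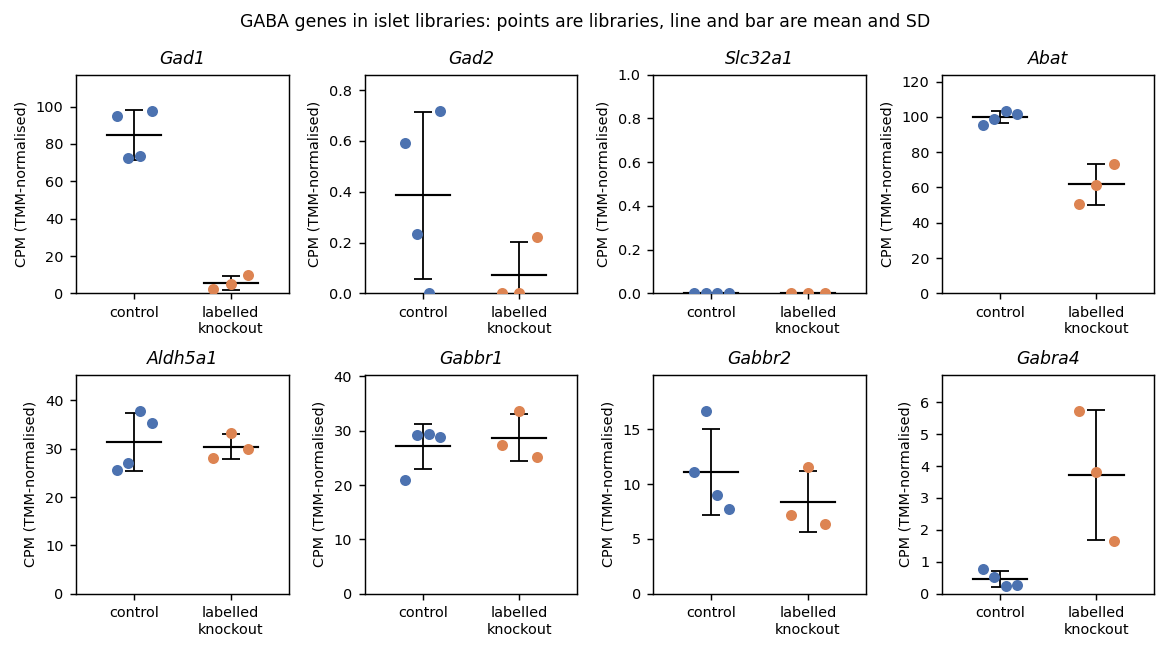
Levels of the 8 genes by library, in TMM-normalised CPM on linear axes that start at 0, with points for libraries, lines for the mean and bars for the SD (4 controls, 3 labelled knockouts). Gad1 and Abat sit lower and Gabra4 sits higher in every labelled knockout than in any control, while the groups overlap in Gad2, Aldh5a1, Gabbr1 and Gabbr2 and Slc32a1 is at 0.

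Of the enzymes of GABA breakdown, Abat stood lower in the labelled knockouts and Aldh5a1 overlapped. Abat (chromosome 16, 8513429 to 8621567, plus strand), the GABA transaminase gene, had 95.6, 98.7, 103 and 102 CPM in controls 1 to 4. Labelled knockouts 1 to 3 had 50.4, 61.5 and 73.3 CPM. The groups did not overlap, and the controls lay close together (99.9 ± 3.41 CPM; SD, n = 4) beside a wider spread in the labelled knockouts (61.8 ± 11.5 CPM; SD, n = 3). The log2 difference was −0.69 (SE 0.13). Aldh5a1 (chromosome 13, 24907579 to 24937661, minus strand), the succinic semialdehyde dehydrogenase gene, had 25.6, 27.1, 37.7 and 35.4 CPM in controls 1 to 4, beside 28.1, 33.2 and 30.0 CPM for labelled knockouts 1 to 3. All 3 labelled knockouts lay within the range of the controls, with a log2 difference of −0.04 (SE 0.16) that was 0.15 when libraries were scaled by size alone. The sign of that difference turned in 6 of 15 alternatives. The opposite-strand genes 4932702P03Rik and 9330162012Rik overlap Aldh5a1, so its reads cannot be told apart from theirs either. Within each library, Abat over Aldh5a1 was 3.25 ± 0.52 (ratio of CPM; SD, n = 4) in controls and 2.03 ± 0.36 (SD, n = 3) in the labelled knockouts. That ratio was 2.74 in the lowest control, control 3, and 2.44 in the highest labelled knockout, labelled knockout 3, so the groups did not overlap in it.

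The GABA-B receptor genes were expressed in both groups, whose ranges overlapped. Gabbr1 (chromosome 17, 37045966 to 37074305, plus strand) had 21.0, 29.2, 29.5 and 28.9 CPM in controls 1 to 4, and labelled knockouts 1 to 3 had 27.4, 33.6 and 25.2 CPM. The groups overlapped, and control 1 stood below every other library. The log2 difference was 0.08 (SE 0.16), and it turned to −0.02 without control 1 and to −0.05 without labelled knockout 2. Gabbr2 (chromosome 4, 46663898 to 46991714, minus strand) had 11.1, 16.6, 9.01 and 7.75 CPM in the same order of controls, and the labelled knockouts had 7.20, 11.6 and 6.38 CPM. The controls were widely spread, and labelled knockout 2 lay among them. The log2 difference of −0.41 (SE 0.29) was −0.15 without control 2 and −0.73 without labelled knockout 2. With the replicate number as a block it was −0.55 (SE 0.23). The labelled knockout was the lower library in each of the 3 same-numbered pairs. The labels do not give these pairs, and control 4 and labelled knockout 3, which share no number, also deviated together (r = 0.157). The ratio of Gabbr2 to Gabbr1 was 0.532 and 0.570 in controls 1 and 2, and 0.306 and 0.269 in controls 3 and 4. The labelled knockouts had 0.263, 0.345 and 0.253, so labelled knockout 2 lay among the controls and the others lay just below control 4.

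Gabra4 was the member that stood higher in the labelled knockouts. This gene (chromosome 5, 71569734 to 71658308, minus strand) encodes the alpha 4 subunit of the GABA-A receptor. It had 22, 27, 4 and 6 counts in controls 1 to 4, or 0.766, 0.525, 0.244 and 0.287 CPM. It had 77, 88 and 37 counts in labelled knockouts 1 to 3, or 5.72, 3.80 and 1.64 CPM. The groups did not overlap, although labelled knockout 3 was closer to the controls than to labelled knockout 1. The log2 difference was 2.96 (SE 0.58), or 7.79-fold, and it was 2.52 without labelled knockout 1. The summed neuron and Schwann cell markers were also higher in these libraries, as given above, and their part in the Gabra4 difference was not tested. The gene passed the filter on low counts through the labelled knockouts, where it is high.

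In all, 6 of the 8 genes reached the filter. Of these, 2 were lower with no overlap, 1 was higher with no overlap and 3 overlapped. In the same comparison edgeR called 5.25% of all genes lower and 8.73% higher (adjusted p under 0.05). Among all 14529 tested genes, 12.6% were lower with no overlap, 14% were higher with no overlap, and 26.6% were one or the other. The median log2 difference of the 6 was −0.23, beside 0.01 over all tested genes. Nothing is read from these shares, because the genes were picked with this difference known. In all 3 separated genes labelled knockout 3 lay nearest the controls and labelled knockout 1 farthest from them. Over all called genes, labelled knockout 3 was the nearest library in 53.2% of the 763 lower genes and in 42.7% of the 1268 higher genes.

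Tested genes were ranked by how closely they followed Gad1 over the 7 libraries. By Pearson correlation of log2(CPM + 0.5) over the 7 libraries among 12765 tested genes, predicted ones left out, with at least 1 CPM on average, the 5 most alike were Pard6g (r = 0.998), Ptpra (0.996), Ppp1r17 (0.995), Tmem215 (0.995) and Slc2a2 (0.994). All share the same 7 libraries, and the values are a description. The difference between the groups enters each r, so a gene that is lower in the labelled knockouts can reach a high r through it. The rule names 5 genes, and the number of genes with a similar r was not counted. Slc2a2, the gene of the glucose transporter of beta cells, averaged 524 ± 68.6 CPM (SD, n = 4) over the controls and 93.2 ± 35.7 CPM (SD, n = 3) over the labelled knockouts. Tmem215 had a log2 difference of −2.14 (SE 0.18), and Ppp1r17 went from 8.33 ± 1.22 to 0.571 ± 0.354 CPM. Pard6g, a cell polarity gene, went from 7.91 ± 0.409 to 3.04 ± 0.614 CPM, and Ptpra, a receptor tyrosine phosphatase gene, from 54.0 ± 0.757 to 39.1 ± 2.27 CPM. The sizes of these differences thus ranged from log2 −0.46 (SE 0.11) in Ptpra to −3.78 (SE 0.40) in Ppp1r17, with all 5 highest in labelled knockout 3 among the labelled knockouts. For Gad2 the rule named Gid8, Aloxe3, Atg4b, Rxra and Upp2 (r from 0.941 to 0.972), but with Gad2 at 0 in 3 libraries these values rest on a few reads.

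**Figure D2:**
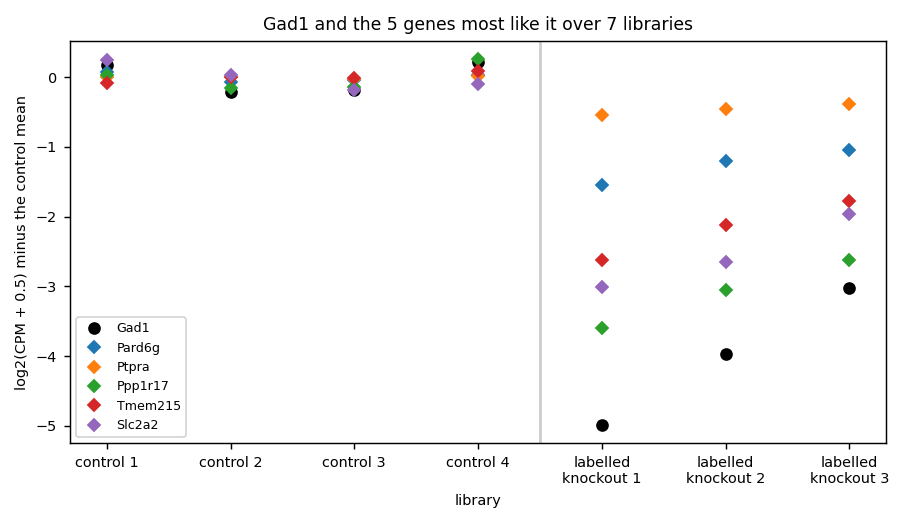
Level of Gad1 and of the 5 genes most like it in each library, as log2(CPM + 0.5) minus the mean of the controls. The controls lie near 0 and every labelled knockout lies below them, with Gad1 the lowest in each and labelled knockout 3 the highest of the labelled knockouts for all 6 genes.

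Genes beside the members were taken from the same fit, and the count called was near the share over all genes. Within 50 kb of the 8 spans lay 23 other genes, of which 11 were tested. The median log2 difference of the 11 was 0.09, and 1 passed the test, against 14% of all tested genes at an adjusted p under 0.05 (edgeR quasi-likelihood test, Benjamini-Hochberg over all 14529 genes). It was Anks6, 23955 bp away on the 5′ side of Gabbr2. Anks6 averaged 19.9 ± 1.64 CPM in controls and fell by 1.12 on the log2 scale (SE 0.17) to 9.17 ± 1.49 CPM, at an edgeR adjusted p of 6.4e-04. Beside Abat, the tested genes Carhsp1, Mettl22, Pmm2 and Tmem186 had log2 differences from −0.01 to 0.12, none of which passed. Gabrb1, another GABA-A subunit gene 41708 bp from Gabra4, had 0.0598 CPM on average in controls and 0.0591 CPM in the labelled knockouts and was not tested. Next to Gad1, Erich2 had 0.0718 CPM on average in controls and 0.0295 CPM in the labelled knockouts and was not tested.

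The other genes of the pathway were followed in 7 lists of 107 genes in all, of which 71 reached the filter. Of these, 6 fell and 5 rose, which is 15.5% of the 71, against 14% of all tested genes. Their median log2 difference was 0.13. Scaled by library size alone, 2 fell and 10 rose. That scaling moved the median difference of all genes from 0.01 to 0.18 and the count over all genes from 763 lower and 1268 higher to 324 lower and 1854 higher. In the single lists, with 5 to 23 genes tested, the share called in the main fit ran from 0% to 21.7%, beside the same 14%. The lists were chosen with earlier results of these data known. Their shares and the adjusted p of their genes are therefore a description.

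Among the genes of the other GABA-A receptor subunits, 1 of 5 tested rose. Gabre had 0.284 ± 0.155 CPM (SD, n = 4) in controls against 0.844 ± 0.273 CPM (SD, n = 3), and Gabrq had 0.259 ± 0.237 against 0.902 ± 0.267 CPM; neither passed. The other 13 subunit genes did not reach the filter, and Gabra6 and Gabrr3 had no count in any library.

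In the list of GABA carriers and release channels, 0 of 6 tested genes passed the edgeR threshold. Over all tested genes 14% did, so a count of 0 among 6 does not set the list apart. The 6 include Slc18a2, the gene of a vesicular monoamine carrier, which does not act at the cell membrane. The count was also 0 at an unadjusted p under 0.05, by DESeq2 and by limma-voom. Slc6a6, the taurine carrier that also takes up GABA, had 194 ± 31.1 CPM in controls and 171 ± 22.9 CPM in the labelled knockouts (log2 −0.18, SE 0.15, edgeR adjusted p = 0.479). Lrrc8a, the obligatory subunit of the volume-regulated anion channel, had 19.3 ± 3.99 and 19.5 ± 1.59 CPM, and its partner subunit gene Lrrc8d had 55.6 ± 4.66 and 48.8 ± 8.53 CPM.

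Genes around glutamate and the shunt showed 1 rise and 2 falls among 19 tested. Slc1a1, which encodes a glutamate and cysteine carrier of the plasma membrane, had 1.36, 0.836, 0.426 and 0.670 CPM in controls 1 to 4, against 10.1, 6.52 and 3.99 CPM for labelled knockouts 1 to 3. It rose by 3.01 on the log2 scale (SE 0.44, edgeR adjusted p = 4.1e-04), with no overlap. Its span begins 155 kb from the 5′ end of Glis3 on chromosome 19. Glul, the glutamine synthetase gene, fell, with 339 ± 6.76 CPM in controls against 234 ± 13.1 CPM (log2 −0.54, SE 0.11; adjusted p by edgeR 0.00591), and the glutamine carrier gene Slc38a2 fell, with 77.3 ± 5.21 CPM in controls against 47.6 ± 6.09 CPM (log2 −0.70, SE 0.12; adjusted p by edgeR 0.00154). The call of Glul was lost when libraries were scaled by size alone (edgeR adjusted p = 0.0838, its highest, beside 3.3e-07 by DESeq2, its lowest). Glud1 (120 ± 8.89 and 116 ± 18.6 CPM), Ogdh (216 ± 26.3 and 218 ± 12.8 CPM) and Suclg1 (74.2 ± 8.67 and 83.6 ± 4.68 CPM), which act on glutamate or next to the shunt in the citric acid cycle, did not pass.

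On other routes to GABA, 1 of 7 tested genes fell. Maob, the monoamine oxidase B gene, whose product takes part in a route from putrescine, had 186, 185, 195 and 212 CPM in controls 1 to 4, against 57.5, 80.7 and 112 CPM for labelled knockouts 1 to 3 (log2 −1.22, SE 0.18, edgeR adjusted p = 5.1e-04). As with Gad1 and Abat, no labelled knockout reached the lowest control. Aldh9a1 (75.2 ± 5.88 and 71.6 ± 10.2 CPM), the ornithine decarboxylase gene Odc1 (44.0 ± 5.05 and 56.3 ± 5.42 CPM, edgeR adjusted p = 0.0799) and Csad (25.1 ± 4.03 and 30.5 ± 2.25 CPM) did not pass.

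Genes of proteins that anchor or modify GABA receptors were called both ways, with 3 of 23 tested higher and 2 lower. That is 21.7% called, beside 14% of all tested genes. Kctd12, an auxiliary subunit gene of the GABA-B receptor, rose, with 40.4 ± 3.77 CPM in controls against 73.4 ± 11.9 CPM (log2 0.86, SE 0.13; adjusted p by edgeR 6.1e-04). Gng2, which encodes a G protein gamma subunit, rose from a range of 10.1 to 15.7 CPM in controls to one of 24.2 to 38.1 CPM in the other group (log2 1.29, SE 0.21, edgeR adjusted p = 7.8e-04). Plcl1, whose product binds GABA-A receptors and their trafficking partners, rose, with 1.46 ± 0.266 CPM in controls against 4.00 ± 1.53 CPM (log2 1.45, SE 0.40; adjusted p by edgeR 0.025). Nlgn2, the gene of the adhesion protein neuroligin 2 of inhibitory synapses, fell, with 75.2 ± 7.08 CPM in controls against 48.1 ± 9.40 CPM (log2 −0.64, SE 0.14; adjusted p by edgeR 0.00744). Gphn, the gephyrin gene, whose product anchors inhibitory receptors, fell from a range of 29.1 to 29.6 CPM in controls to one of 21.4 to 22.8 CPM in the other group (log2 −0.42, SE 0.12, edgeR adjusted p = 0.0394).

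The calls of Gphn, Plcl1 and Nlgn2 were the fragile ones in that list. Gphn lost its call without any 1 of the 7 libraries, with the replicate number as a block (edgeR adjusted p = 0.0884), without the filter and with library size alone, at edgeR adjusted p from 0.0513 to 0.42. Its lowest adjusted p over the alternatives was 0.0133, by DESeq2. Plcl1 lost it with the replicate block (0.0606) and without control 2 (0.0701), control 3 (0.0686) or labelled knockout 2 (0.127), all by edgeR, and its lowest adjusted p was 0.00346, by DESeq2. Nlgn2 lost it with library size alone (edgeR adjusted p = 0.0751, its highest, beside 4.9e-04 by DESeq2, its lowest). Gabarap (408 ± 102 and 471 ± 62.2 CPM), Gabarapl1 (136 ± 6.78 and 141 ± 36.5 CPM) and Clptm1 (93.6 ± 6.09 and 121 ± 17.4 CPM) did not pass, though Gabarap did with the replicate block (edgeR adjusted p = 0.0427) and with library size alone (0.0416), and Clptm1 did by DESeq2 (adjusted p = 0.0319) and with library size alone (0.0252 by edgeR).

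Chloride cotransporters set the direction of current through GABA-A receptors, and 1 of 6 tested genes fell. Slc12a7, a potassium and chloride cotransporter gene, had 90.4, 91.3, 89.4 and 94.1 CPM in controls 1 to 4, against 62.7, 58.1 and 56.6 CPM for labelled knockouts 1 to 3 (log2 −0.63, SE 0.10, edgeR adjusted p = 0.00111; 0.0504 with library size alone, where the call was lost, the highest of its alternatives, and 1.1e-07 by DESeq2, the lowest). Slc12a2, which brings chloride into cells, had 13.8 ± 2.13 CPM in controls and 19.9 ± 2.99 CPM in the labelled knockouts and did not pass (log2 0.54, SE 0.18, edgeR adjusted p = 0.0599), but did by DESeq2 (adjusted p = 0.0387), by limma-voom (0.0437) and with library size alone (0.0323). Slc12a5 (11.3 ± 1.33 and 11.5 ± 1.54 CPM) did not pass.

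Genes of GABAergic neuron transcription factors showed no edgeR call among 5 tested of 15, against 1 at an unadjusted p under 0.05, 1 call by DESeq2 and 0 by limma-voom. Beside the 14% called over all tested genes, a count of 0 among 5 does not set this list apart either. Gata2 (5.42 ± 1.10 and 5.12 ± 0.452 CPM) did not pass. Helt, Pax2, Lbx1 and Nkx2-1 had no count in any library.

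**Figure D3:**
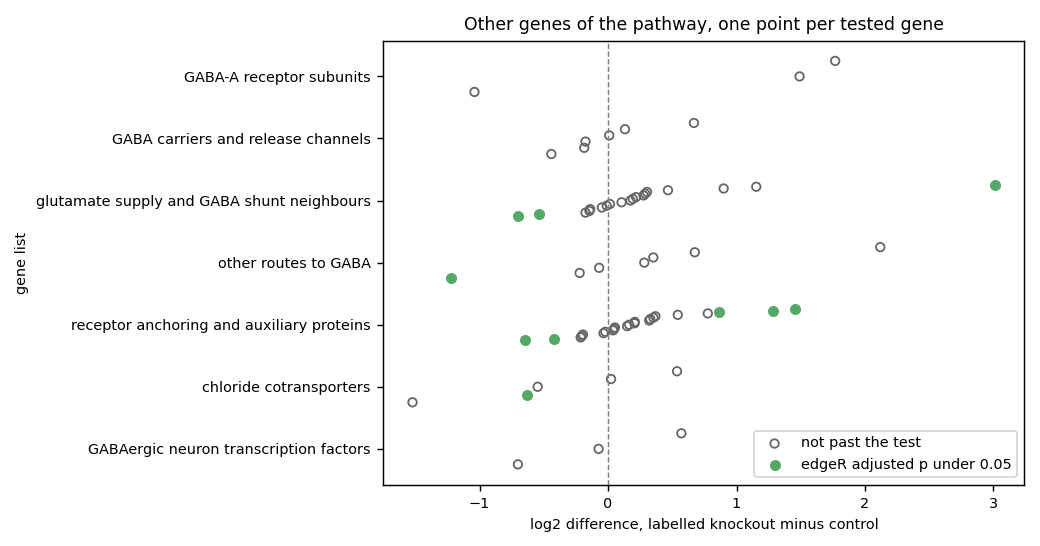
Log2 difference, labelled knockout minus control, of the tested genes in the 7 lists, apart from those not reported here, with filled points for an edgeR adjusted p under 0.05. The 4 filled points to the right and 6 to the left are spread over 4 of the lists, with Slc1a1 at 3.01 the farthest from 0.

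**Figure D4:**
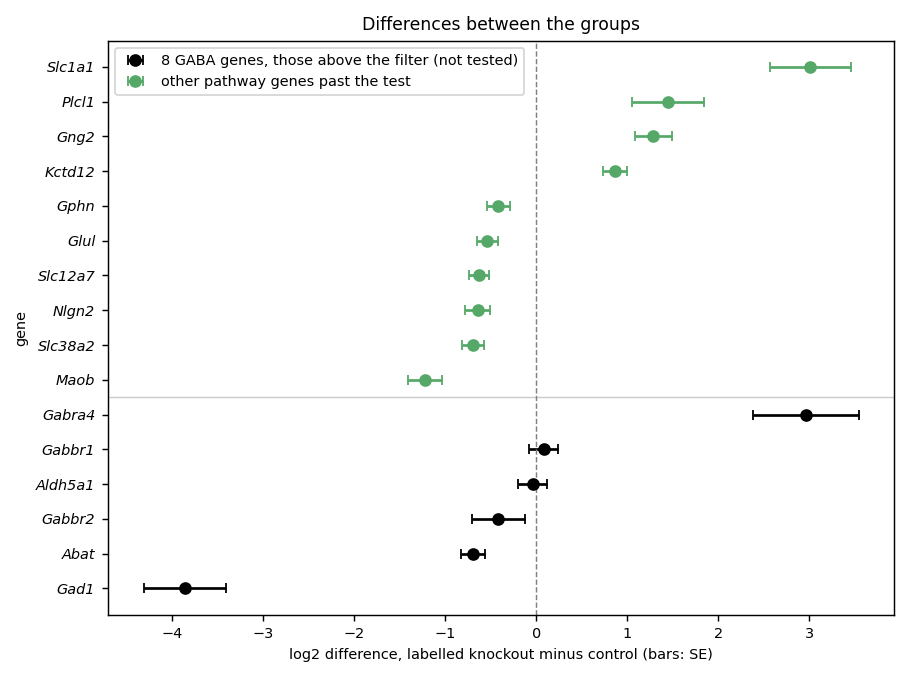
Log2 difference with its SE for the 6 members that reached the filter, drawn in black and not tested, and for 10 other pathway genes past the test, in green. Gad1 at −3.86 lies at the left end, and Slc1a1 (3.01) and Gabra4 (2.96) lie at the right end.

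Glis3 peaks lay near all 8 genes, as they did near most genes. With a window of 50 kb around each gene span, 8 of 8 had at least 1 peak, against 93.7% of all tested genes, so the presence of a peak does not set these genes apart. All 8 also had a peak within 10 kb of the span (85.8% of tested genes), within 100 kb (96.4%) and within 50 kb of the 5′ end (91.1%). There were 27 peaks within 50 kb of the spans. Of these 16 lay inside the spans of 6 members, against 61.2% of tested genes with a peak inside. For 11 of the 27 the nearest 5′ end was that of the member, and 6 lay within 1 kb of the 5′ end of another gene. Within 1 kb of the 5′ end, 7 of 8 members had a peak, against 71.2% of tested genes, with Slc32a1 the exception. Exons and introns are not given for peaks inside a span, since no exon annotation was used here.

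Gad1 had 5 peaks, in mm10 coordinates. The first (chr2:70562290-70562489) was centred 260 bp past the 5′ end. The next (chr2:70573577-70573776, chr2:70592474-70592673 and chr2:70598535-70598734) lay 11.5, 30.4 and 36.5 kb past it, inside the span, and the last (chr2:70629456-70629655) lay 27.5 kb beyond the 3′ end. Gad2, by contrast, had a single peak, centred 31 bp before its 5′ end and shown in capitals above, although it was barely expressed. Abat had 8 peaks, among them one at its start (chr16:8513414-8513613, 84 bp past the 5′ end) and 3 more inside the span, 7272, 25972 and 32166 bp past the 5′ end. Of the other 4, the ones at chr16:8637032-8637231 and chr16:8637589-8637788 lay 570 and 13 bp from the 5′ end of Tmem186, and one upstream lay 62 bp from that of Mettl22.

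The genes whose levels overlapped between the groups also carried peaks at their starts. Aldh5a1 had 3 peaks, with one 168 bp past its 5′ end (chr13:24937394-24937593) that lay 92 bp from the 5′ end of the opposite-strand gene 9330162012Rik. Gabbr1 had 1, centred 70 bp past its 5′ end (chr17:37045937-37046136). Gabbr2, whose span of 328 kb is the longest of the 8, had 6, with one centred 4 bp before the 5′ end and 4 inside the span. Gabra4, the gene that stood higher, had 1, at 723 bp past the 5′ end (chr5:71657486-71657685). A peak at the start was thus found in members that stood lower, in the one that stood higher and in those that overlapped. Slc32a1 had 2 peaks, 15.5 kb before its 5′ end and 9.39 kb beyond its 3′ end, and the second lay 219 bp from the 5′ end of Actr5.

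**Figure D5:**
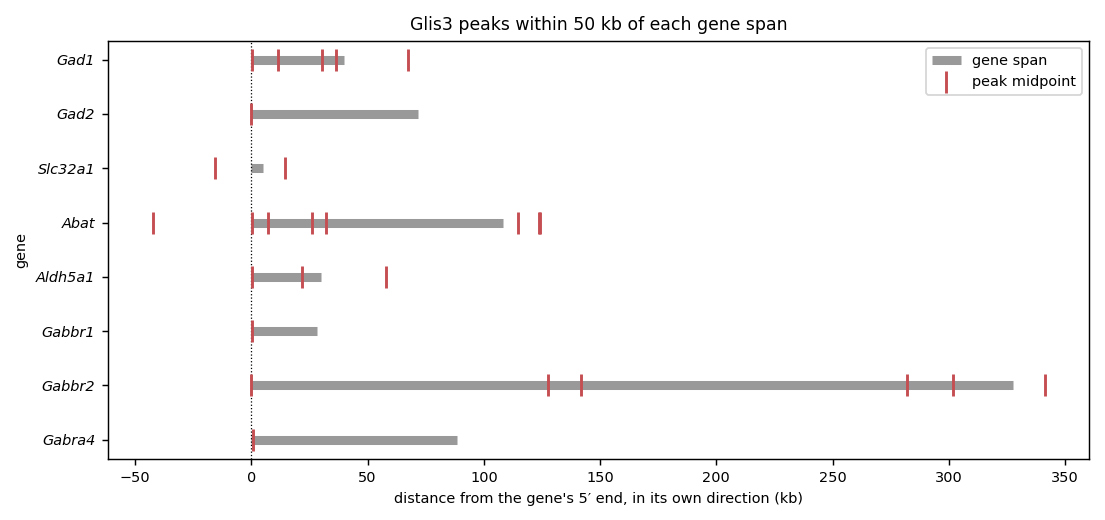
Peak midpoints (red ticks) within 50 kb of each gene span (grey bars), by distance in kb from the 5′ end in the gene's own direction. A tick stands at or next to 0 kb in 7 of the 8 genes, and Gad1, Abat and Gabbr2 hold 5, 8 and 6 ticks.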

How the data were processed

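Counts were deposited as whole numbers per gene without normalisation, and the file headers give each gene a symbol, an Entrez number and a position (mm10, per the submitters' processing notes). STAR 2.5, featureCounts 1.5.0-p1 and DESeq2 are named, and HOMER 4.9.1, bedtools 2.24.0, Picard 1.110, cutadapt 1.2.1 and Bowtie 1.2 also appear, all without roles, per the submitters' processing notes. Strand setting, annotation and peak thresholds are not given in the sources used here. A list of 21254 peaks carries no score. The input library was not analysed here.

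Genes were kept with filterByExpr, scaled with TMM factors and fitted in R 4.3.3 by edgeR 4.0.16, using its robust quasi-likelihood test, with Benjamini-Hochberg adjustment over all 14529 tested genes and a threshold of 0.05. Each SE is the absolute log2 difference over the square root of F. CPM of all genes use the same effective library sizes. Transcript lengths were not used, so a ratio of CPM between genes was compared across libraries only and gives no relative amount of the transcripts. The naming of uncalled list genes by highest CPM also carries no correction for length. The 7 libraries have separate numbered titles in the labels and were taken as separate replicates. No 2 of a group were copies (chi-square per degree of freedom from 23.4 to 95.4). The fit was tested on simulated data.

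The members, the lists and the named genes (every called list member, up to 3 uncalled ones with the highest CPM per list, called neighbours within 50 kb, and 5 genes most like Gad1 and Gad2) were chosen with earlier results of these data known. Some genes the rule names are counted in their lists but not reported here. Some genes at 0 in all libraries, uncalled neighbours and Gad1os are named beyond that rule. Peak midpoints were set against gene spans and 5′ ends of the count table. Promoters came from RefSeq (GRCm38.p6), where 88.8% of 18310 genes matched by identifier had the same 5′ end.

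Same-numbered libraries deviated together from their group means (r = 0.173, 0.117 and 0.117 for numbers 1 to 3). The replicate number was therefore used as a block in an alternative fit, while the main fit had no block. Control 4 and labelled knockout 3, which share no number, had r = 0.157, above the values for numbers 2 and 3. The labels do not give the pairs, and these values do not settle them. Alternatives were RLE factors, library size alone, 10 most abundant genes left out, no filter, limma-voom (limma 3.58.1), a filter of 1 CPM reached in 3 libraries, DESeq2 1.42.0, a replicate block, each library left out, an adjusted p under 0.01, and other peak windows.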

Additional observations from a re-analysis of the deposited data

Results flagged for a closer look

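Among 43 genes checked in the 4 controls, 2 had a control far from the other 3, and chance flags about 1 in 20 groups. Gabbr1 was at 21.0 CPM in control 1, where the other controls had 28.9 to 29.5 CPM. Gata2 was at 7.06 CPM in control 3.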

How the results depend on the processing

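The 3 genes whose groups did not overlap (Gad1, Abat and Gabra4) kept their direction under all 15 alternatives, with log2 differences from −4.55 to −3.52 for Gad1, −0.86 to −0.53 for Abat and 2.52 to 3.30 for Gabra4. The number of members with no overlap was 4 without labelled knockout 2 and 3 without any other library. Library size alone gave 324 lower genes over all genes, and 2 lower and 10 higher among the pathway genes, which follows from the shift of all genes under that scaling. DESeq2 called 11 pathway genes higher, and the cause was not tested. An adjusted p under 0.01 gave 336 lower and 731 higher genes, since it is the stricter threshold. With the replicate block, 803 genes were lower and 1385 higher over all genes, and 5 and 6 among the pathway genes. Among the named genes of the lists, Anks6 and the 4 named markers called by edgeR, the block changed the calls of Gphn, Plcl1, Gabarap and Tubb3 and no other, and it changed that of Glis3. Glis3 (edgeR adjusted p = 0.0257) also lost its call when control 3 or 4, or labelled knockout 1 or 3, was left out, and these 4 fits and the block gave 0.0501 to 0.117. Leaving out each library gave 541 to 825 lower and 934 to 1142 higher genes. Peaks near the members numbered 42 within 100 kb of the spans and 17 within 50 kb of the 5′ ends, since those windows are wider and narrower. Depth limits Gad2, which rests on 44 and 5 counts, and Slc32a1, for which no direction can be given.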
